A study of Mus musculus with 7 samples.

Results

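Fatty acid oxidation in mitochondria and peroxisomes was followed here through 37 genes, picked by symbol from the 14819 rows of a table of read counts. The 37 genes encode the receptor PPARα, the acyl-CoA synthetases, the carnitine shuttle and the enzymes of both organelles. By the place of the protein, 19 were grouped as mitochondrial, 8 as peroxisomal, 4 as belonging to both organelles, 5 as acyl-CoA synthetases of several membranes and 1 as nuclear. The measurements were RNA-seq counts from primary hepatocytes of WT mice (4 libraries) and of *Wdr6* whole-body knockout mice (WDR6-WKO, 3 libraries), in which exon 2 of *Wdr6* had been deleted by CRISPR–Cas9 in every tissue. The hepatocytes came from male mice by collagenase perfusion, were grown in serum-containing William's E medium and received no treatment, and the comparison asked how loss of WDR6 changed their transcriptome. By the general methods, mice were C57BL/6J, 7 weeks old and fed ad libitum unless otherwise specified, and nothing more was stated for the WDR6-WKO line and its controls. WDR6 is a WD40-repeat protein that the study examined for its part in hepatic lipogenesis. No label tied a library to a mouse or a hepatocyte preparation, so p-values measure the spread between these samples.

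β-Oxidation shortens a fatty acyl-CoA from its carboxyl end by a cycle of dehydrogenation, hydration, a second dehydrogenation and thiolysis. Mitochondria take long-chain acyl groups in through the carnitine shuttle, oxidise them to acetyl-CoA and pass electrons to the respiratory chain through the electron transfer flavoprotein. Peroxisomes shorten very long-chain, branched-chain and bile acid precursor acyl groups with a separate set of enzymes, release hydrogen peroxide at the first step and hand the shortened chains on as carnitine esters. In the liver, genes of both systems are targets of the nuclear receptor PPARα and supply energy and ketone bodies in fasting.

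The 7 libraries held between 17816913 and 23668940 counted reads, and the members carried between 51 and 10129 reads in each, so that counting error was largest for *Acaa1b* and smallest for *Acsl5*. *Wdr6* itself stood at 40.6 to 49.0 CPM in WT (counts relative to the library total, scaled by edgeR's TMM method) and at 2.23 to 2.58 CPM in WDR6-WKO, a log2 fold change of -4.20 ± 0.11 (s.e.; adjusted p = 3.44e-12). WDR6-WKO replicate 3 stood apart from the other libraries of its genotype. The chi-square per gene between it and them was 14.3 to 15.9, whereas other pairs of one genotype gave 3.80 to 8.23. Results are therefore also given without it. Of 15 hepatocyte markers tested, 7 were lower in WDR6-WKO and 0 higher, and their summed level was 17280 to 20520 CPM in WT and 15530 to 17630 CPM in WDR6-WKO. Of 15 Kupffer cell and macrophage markers, 4 were higher and 0 lower, with sums of 929.5 to 1038 CPM in WT and 1080 to 1285 CPM in WDR6-WKO. For stellate cells 2 of 13 markers were higher and 1 lower (725 to 790 CPM in WT, 776 to 843 in WDR6-WKO), and for sinusoidal endothelial cells 1 of 13 was lower and 0 higher (354 to 406 and 333 to 396). For cholangiocytes 2 of 6 markers were higher (3099 to 3394 and 3742 to 4337), most of that sum being *Spp1*, and of 13 T, B and NK cell markers the table held only *Ptprc*. Of 12 pericentral hepatocyte genes 7 were lower, and of 13 periportal genes 3 were lower and 3 higher. Of 19 genes that change as hepatocytes dedifferentiate in culture, 3 were lower and 2 higher. These counts are of genes with an adjusted p under 0.05 by edgeR's quasi-likelihood test. Over all genes tested, 6.18% were lower by it and 6.65% higher. The part of these differences in the results on fatty acid oxidation was not tested. In bulk RNA, fewer cells of a type and less RNA per cell cannot be told apart.

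In WDR6-WKO hepatocytes, 6 of the 37 fatty acid oxidation genes were lower than in WT and 1 was higher, by edgeR's quasi-likelihood test with an adjusted p under 0.05. The lower genes were the very long-chain acyl-CoA synthetase *Slc27a2*, the acyl-CoA dehydrogenase *Acad11*, the peroxisomal 2,4-dienoyl-CoA reductase *Decr2*, the carnitine octanoyltransferase *Crot*, the carnitine palmitoyltransferase *Cpt2* and the electron transfer flavoprotein dehydrogenase *Etfdh*. The higher gene was *Amacr*, the racemase of branched-chain acyl-CoAs. Over all 14779 genes tested, 6.18% were called lower and 6.65% higher. The other 30 members did not pass the test. The sizes were modest outside *Slc27a2*, which was at 54.1% of its WT level, since the remaining called members lay between 71.4% and 119% of WT.

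**Figure D1:**
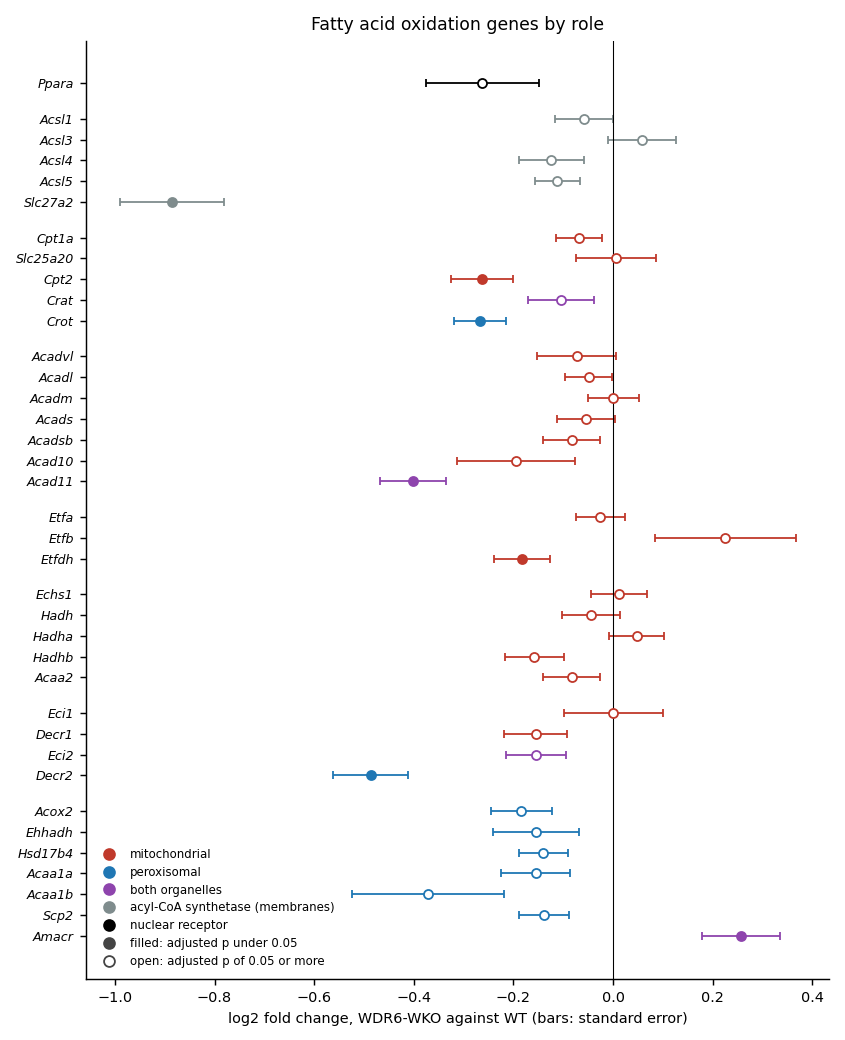
Log2 fold change of each of the 37 genes in WDR6-WKO (n = 3) against WT (n = 4), in order of role from the receptor at the top to the peroxisomal core enzymes at the bottom. Points are the fitted values, bars the standard error, colours the compartment, and filled points have an adjusted p under 0.05; *Slc27a2* lies furthest to the left at -0.89, and 29 of the 37 points lie below 0.

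Most members leaned the same way. The fitted log2 fold change was below 0 for 29 members and above 0 for 8, with a median of -0.11. Of all genes tested 48.8% were below 0, and their median was 0.0051. The median was lower than that of the members for hepatocyte markers (-0.35) and pericentral genes (-0.33). For periportal genes it was -0.03, and for Kupffer cell and macrophage markers 0.24. How far the lean is shared with hepatocyte genes in general was not tested. In 16 members all WDR6-WKO libraries were below all WT libraries, against 11.7% of all genes tested, and in 1, *Amacr*, they were all above, against 11.8%. The ranges of the other 20 overlapped. With 4 and 3 libraries there are 35 ways to divide them, and an exact two-sided permutation test of a single gene cannot give a p below 0.0286. Of the 7 called genes 6 reached this value, all but *Etfdh*. It was also reached by *Acsl5*, *Decr1*, *Eci2*, *Hsd17b4*, *Acaa1b* and *Scp2*, which were not called.

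Promoter sequences of the members were read from RefSeq (GRCm38.p6), in windows from 250 bases before to 50 bases after each annotated start. Of the 37 members, 32 had windows, 34 in all. The bases before the start are shown 5′ to 3′ for the 4 members with the smallest p, and for *Acox2*, which carried a motif that no other member had. Capitals mark, on either strand, a single nuclear receptor site (AGGTCA), a GC box (GGGCGG) and a direct repeat. PPARα binds together with RXR to a direct repeat of receptor sites with 1 base between them. The repeat was searched in a looser form (GGNCA, any base and then AGGNCA), which need not hold AGGTCA.
Slc27a2, chr2:126552774-126553023, + strand: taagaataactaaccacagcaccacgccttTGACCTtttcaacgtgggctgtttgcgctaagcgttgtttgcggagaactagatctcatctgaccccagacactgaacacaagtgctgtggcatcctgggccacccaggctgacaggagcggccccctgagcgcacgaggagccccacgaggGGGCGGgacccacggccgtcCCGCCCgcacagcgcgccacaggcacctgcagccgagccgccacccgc
Decr2, chr17:26090165-26090414, - strand: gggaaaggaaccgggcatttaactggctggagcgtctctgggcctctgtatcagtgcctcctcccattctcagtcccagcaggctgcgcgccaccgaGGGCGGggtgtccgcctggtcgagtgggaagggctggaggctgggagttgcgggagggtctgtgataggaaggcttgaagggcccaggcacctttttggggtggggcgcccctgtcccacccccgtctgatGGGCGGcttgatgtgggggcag
Acad11, chr9:104063474-104063723, + strand: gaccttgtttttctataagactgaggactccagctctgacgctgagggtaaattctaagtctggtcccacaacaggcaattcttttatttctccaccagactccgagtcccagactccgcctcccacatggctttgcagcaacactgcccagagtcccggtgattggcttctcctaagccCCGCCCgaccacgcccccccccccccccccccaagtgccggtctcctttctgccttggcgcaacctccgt
Crot, chr5:8997147-8997396, - strand: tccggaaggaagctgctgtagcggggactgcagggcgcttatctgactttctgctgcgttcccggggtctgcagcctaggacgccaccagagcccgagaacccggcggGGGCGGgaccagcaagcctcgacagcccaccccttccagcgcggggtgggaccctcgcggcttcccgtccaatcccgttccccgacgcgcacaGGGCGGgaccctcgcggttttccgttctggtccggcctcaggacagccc
Acox2, upstream start, chr14:8259020-8259269, - strand: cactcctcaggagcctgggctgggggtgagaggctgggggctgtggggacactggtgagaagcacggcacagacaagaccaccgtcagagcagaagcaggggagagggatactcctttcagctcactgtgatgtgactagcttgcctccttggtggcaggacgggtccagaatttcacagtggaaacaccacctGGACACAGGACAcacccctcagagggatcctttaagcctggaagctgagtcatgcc

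The *Slc27a2* window, from the gene with the largest decrease, held a single receptor site whose first base lay at -220 from the start. A single site occurred in 6 of the 34 member windows (17.6%; *Acadm*, *Acadvl*, *Cpt1a*, *Echs1*, *Scp2* and *Slc27a2*), in 13.2% of the windows of genes tested and in 16.3% of all 32851 windows in the table. The direct repeat occurred in 1 of the 32 members, *Acox2*, at -56 from the upstream start. The 2 windows of *Acox2* overlap and both hold this same site, so 1 site was counted in 2 of the 34 member windows, and the repeat occurred in 0.835% of the windows of genes tested and 0.801% of all. GC boxes were found in 25 of 34 member windows (73.5%), among them all those shown except that of *Acox2*, against 59.7% for genes tested and 35.7% of all windows. The TATA motif TATAAA occurred in 0 of the 34, against 7.90% and 13.6%. The single site and the direct repeat shared 0 bases with a GC box in the member windows. These matches describe the letters of each window alone, and no binding was measured.

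The receptor *Ppara* encodes the transcription factor that switches on much of this pathway when fatty acids bind it. It was at 12.6, 11.2, 14.6 and 11.3 CPM in WT libraries 1 to 4 and at 9.56, 10.7 and 10.8 CPM in WDR6-WKO libraries 1 to 3. The ranges did not overlap, but the highest WDR6-WKO library lay close to the lowest WT library. Its log2 fold change of -0.26 ± 0.11 did not pass the test (adjusted p = 0.145).

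Acyl-CoA synthetases activate fatty acids by joining them to coenzyme A, the step that precedes oxidation and esterification alike. *Slc27a2* encodes FATP2, a transporter and synthetase for very long-chain fatty acids in peroxisomes and the endoplasmic reticulum (chr2:126552407-126588243 in GENCODE M21 on GRCm38). Its level was 15.5, 15.4, 15.6 and 18.6 CPM in WT and 8.77, 9.36 and 8.27 CPM in WDR6-WKO. The groups did not overlap, and the WT spread was set by replicate 4 alone, which lay above the others. The log2 fold change was -0.89 ± 0.10 (adjusted p = 3.95e-05), and it stayed between -0.93 and -0.81 with each library left out in turn. Of its exon bases, 11.2% overlap *Gm26697* on the opposite strand, and the strand setting of the counting was not given in the sources used here.

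The 4 long-chain synthetases did not pass the test. *Acsl5*, a synthetase of mitochondria and the endoplasmic reticulum, had 453 to 485 CPM in WT and 421 to 439 CPM in WDR6-WKO, without overlap, and a log2 fold change of -0.11 (adjusted p = 0.114). *Acsl4*, which prefers arachidonic acid, had -0.12 (adjusted p = 0.231), with WDR6-WKO replicates 1 and 2 at 223 and 211 CPM and replicate 3 at 261 CPM, inside the WT range of 241 to 267 CPM. *Acsl1*, a major synthetase of liver, was at 96.0% of WT (log2 fold change -0.06, adjusted p = 0.554), and *Acsl3*, a synthetase of lipid droplets, had overlapping ranges. Among the synthetases the difference was largest for the least abundant member, since *Slc27a2* had 5.58 CPM per kilobase of transcript in WT and *Acsl5* 110.0.

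The carnitine shuttle begins with *Cpt1a*, the malonyl-CoA-sensitive acyltransferase of the outer mitochondrial membrane and the usual control point of entry, continues with the carrier *Slc25a20* and ends with *Cpt2* on the inner membrane. *Cpt2* (chr4:107903981-107923610) was at 45.3, 51.0, 46.6 and 46.8 CPM in WT and at 39.0, 40.3 and 39.3 CPM in WDR6-WKO. Every WDR6-WKO library was below every WT library, and the log2 fold change was -0.26 ± 0.06 (adjusted p = 0.0112). The call did not hold without WT replicate 2, the highest library, where the adjusted p was 0.0508. *Cpt1a* lay at 188 to 195 CPM in WT and 176 to 187 CPM in WDR6-WKO, with a log2 fold change of -0.07 (adjusted p = 0.354). *Slc25a20* was at 100.2% of WT, with 1 WDR6-WKO library above, 1 within and 1 below the WT range (adjusted p = 0.975).

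Carnitine acyltransferases of shorter chains carry the products of peroxisomal oxidation. *Crot*, the peroxisomal carnitine octanoyltransferase (chr5:8966033-8997324), had 149.8, 145.5, 142 and 149 CPM in WT and 118, 118 and 130.1 CPM in WDR6-WKO. WDR6-WKO replicate 3 was the nearest to WT, and the groups stayed apart. The log2 fold change was -0.27 ± 0.05 (adjusted p = 0.00324), and the adjusted p did not exceed 0.0234 when single libraries were left out. *Crat*, the carnitine acetyltransferase of mitochondria and peroxisomes, had a log2 fold change of -0.10 (adjusted p = 0.324) and overlapping ranges.

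**Figure D2:**
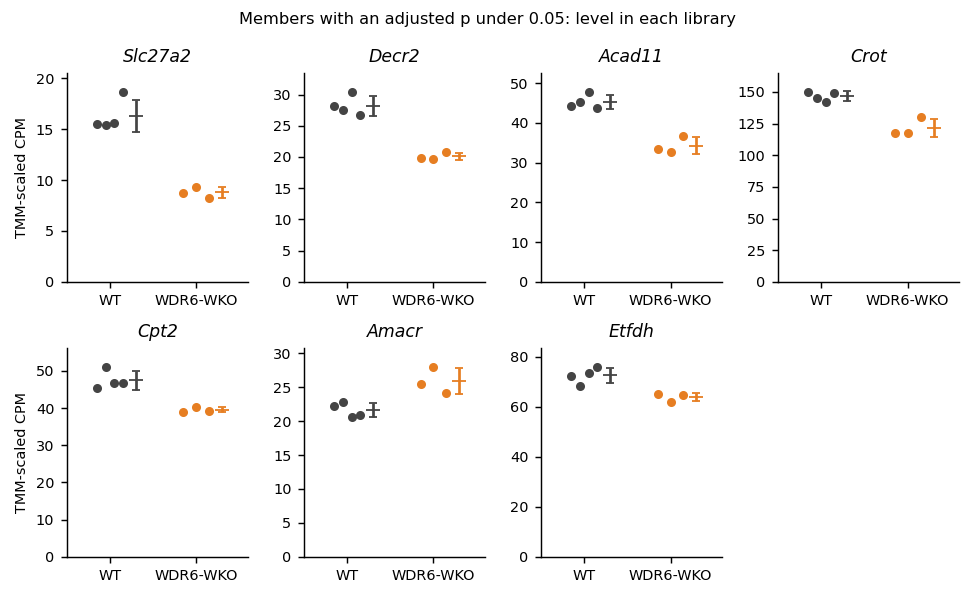
TMM-scaled CPM of the 7 members with an adjusted p under 0.05, in each WT (n = 4, grey) and WDR6-WKO (n = 3, orange) library in order of replicate number; crosses with bars give the mean and s.d. All vertical axes start at 0, and in each gene the WT and WDR6-WKO points do not overlap.

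Acyl-CoA dehydrogenases catalyse the first step of the mitochondrial cycle, each for a range of chain lengths, and pass electrons to the electron transfer flavoprotein. *Acad11*, which acts on long-chain substrates and is found in peroxisomes and mitochondria (chr9:104063377-104127725), was at 44.2, 45.4, 47.8 and 43.7 CPM in WT and at 33.5, 32.7 and 36.7 CPM in WDR6-WKO. The groups were clearly separate, with a log2 fold change of -0.40 ± 0.07 (adjusted p = 0.000802). It was the only dehydrogenase of the 7 to pass the test. Of the 4 enzymes that take fatty acids from very long to short chains, *Acadvl*, *Acadl* and *Acads* had WDR6-WKO means at 94.8%, 96.6% and 96.3% of WT, and *Acadm* averaged 122 CPM in both genotypes. The ranges overlapped in each of the 4. *Acadl* had the smallest p of them, at a log2 fold change of -0.05 (adjusted p = 0.549). *Acadsb*, for short branched chains, had -0.08 (adjusted p = 0.369). *Acad10*, a low-level relative, had -0.20 (adjusted p = 0.304), and 17.3% of its 50-base stretches also occur in *Acad12*. In *Acadvl*, 42.9% of exon bases overlap other genes, mainly *Dvl2* on the opposite strand.

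The electron transfer flavoprotein is a dimer of ETFA and ETFB, and ETFDH in the inner membrane moves its electrons to ubiquinone. *Etfdh* (chr3:79603788-79629500) stood at 72.3, 68.5, 73.6 and 75.9 CPM in WT and 65.0, 62.1 and 64.8 CPM in WDR6-WKO. The ranges were separate but the difference was small, with a log2 fold change of -0.18 ± 0.06 (adjusted p = 0.0446). The exact permutation p for this gene was 0.0571, and the call was lost on leaving out any of WT replicates 1, 3 and 4 or WDR6-WKO replicates 1 and 2, with adjusted p values up to 0.149. *Etfa* was at 98.2% of WT (log2 fold change -0.03, adjusted p = 0.788). *Etfb* was at 4.87 to 5.70 CPM in WT and at 6.40, 7.09 and 5.03 CPM in WDR6-WKO, so replicates 1 and 2 lay above WT and replicate 3 within it (log2 fold change 0.22, adjusted p = 0.325). Exons of *Etfb* overlap other genes over 58.2% of their bases, mainly *Gm45233* on the same strand, so its count is uncertain.

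The remaining steps of the mitochondrial cycle are carried out by *Echs1* (hydratase), *Hadh* (short-chain 3-hydroxyacyl-CoA dehydrogenase), *Acaa2* (thiolase) and the trifunctional protein, whose α subunit is *Hadha* and β subunit *Hadhb*. None of these 5 genes passed the test, and all 5 had overlapping ranges. *Hadhb* had the smallest p among them, at a log2 fold change of -0.16 (adjusted p = 0.0911), followed by *Acaa2* at -0.08 (adjusted p = 0.370) and *Hadha* at 0.05 (adjusted p = 0.627).

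*Hadha* and *Hadhb* lie head to head on chromosome 5, at 30118304 to 30155162 and 30155248 to 30184593, with 86 bases between their starts, and their promoter windows share 228 of 300 bases. The ratio of their levels varied among the WDR6-WKO libraries. The ratio of *Hadhb* to *Hadha* CPM was 0.592, 0.605, 0.558 and 0.610 in WT and 0.457, 0.488 and 0.608 in WDR6-WKO. Replicates 1 and 2 were below all WT libraries, and replicate 3 was inside the WT range (exact two-sided permutation p = 0.171). Without WDR6-WKO replicate 3 edgeR called *Hadhb* lower (adjusted p = 0.00202) and *Hadha* higher (adjusted p = 0.0373), and these calls therefore depended on that library. *Hadhb* shares 19.7% of its 50-base stretches with *Gm13910*.

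Unsaturated fatty acids need auxiliary enzymes that move or reduce double bonds, in mitochondria *Eci1* and *Decr1*, in peroxisomes *Decr2* and in both *Eci2*. *Decr2* (chr17:26081208-26090337) was at 28.2, 27.5, 30.4 and 26.7 CPM in WT and at 19.9, 19.8 and 20.8 CPM in WDR6-WKO. The WDR6-WKO libraries agreed closely with each other and lay well below WT, with a log2 fold change of -0.49 ± 0.08 (adjusted p = 0.000499). The mitochondrial counterpart *Decr1* had 46.5 to 49.7 CPM in WT and 40.8 to 45.7 CPM in WDR6-WKO. These ranges did not overlap, yet the log2 fold change of -0.16 did not pass the test (adjusted p = 0.120). *Eci2* was similar, at -0.15 (adjusted p = 0.103) with separate ranges. *Eci1* showed no common direction in WDR6-WKO, since replicates 1 and 2 were at 24.8 and 25.6 CPM, above the WT range of 21.4 to 24.5 CPM, and replicate 3 was below it at 18.7 CPM.

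The peroxisomal core enzymes are the oxidase *Acox2* for branched chains and bile acid intermediates, the multifunctional proteins *Ehhadh* and *Hsd17b4*, the thiolases *Acaa1a*, *Acaa1b* and *Scp2*, and *Amacr*, which converts branched-chain acyl-CoAs to the form that the oxidase accepts. Of these 7, only *Amacr* passed the test, and it was higher. *Amacr* (chr15:10981756-10996626) was at 22.3, 22.9, 20.6 and 20.9 CPM in WT and 25.5, 28.0 and 24.2 CPM in WDR6-WKO. All WDR6-WKO libraries were above all WT libraries, with a log2 fold change of 0.26 ± 0.08 (adjusted p = 0.0444). The call was lost on leaving out any WT library or WDR6-WKO replicates 1 or 2, with adjusted p values up to 0.209.

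The other 6 core enzymes all had a fitted change below 0. *Acox2*, whose promoter matched the looser form of the direct repeat, was at 85.9, 78.3, 86.6 and 90.7 CPM in WT. In WDR6-WKO it was at 76.7, 77.5 and 71.2 CPM, separate from WT by less than 1 CPM between the nearest libraries. The log2 fold change of *Acox2* was -0.18 (adjusted p = 0.0591). *Hsd17b4* had -0.14 (adjusted p = 0.0713) and *Scp2* -0.14 (adjusted p = 0.0793), each with separate ranges. *Ehhadh* had separate ranges, *Acaa1a* overlapping ones, and both stood at 89.7% to 89.8% of WT. For *Scp2*, 29.7% of its 50-base stretches occur in *Scp2-ps2*.

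*Acaa1b* and *Acaa1a* encode near-identical thiolases. *Acaa1b* had the fewest reads of all members, at 4.19, 3.93, 4.10 and 3.97 CPM in WT and 3.37, 3.12 and 2.85 CPM in WDR6-WKO. Its groups were separate, and the log2 fold change of -0.37 ± 0.15 did not pass the test (adjusted p = 0.123). Its share relative to *Acaa1a* was also lower, with a ratio of 0.0613 to 0.0683 in WT and 0.0549 to 0.0563 in WDR6-WKO (exact two-sided permutation p = 0.0286, the smallest possible). Since 39.6% of the 50-base stretches of *Acaa1b* occur in *Acaa1a*, how reads were divided between them is uncertain.

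The mitochondrial and the peroxisomal enzymes were then set side by side. Of the 19 mitochondrial genes, 2 were called lower (*Cpt2* and *Etfdh*) and 0 higher, 13 were below 0, and 4 had separate lower ranges. Of the 8 peroxisomal genes, 2 were called lower (*Crot* and *Decr2*) and 0 higher, 8 were below 0, and 7 had separate lower ranges, all but *Acaa1a*. The background for these counts is again 6.18% called lower and 11.7% with separate lower ranges. The median log2 fold change was -0.05 for mitochondrial and -0.17 for peroxisomal genes, against 0.0051 for all genes tested. Within libraries, the median deviation from the WT mean was -0.04, -0.01 and -0.09 for mitochondrial genes in WDR6-WKO replicates 1 to 3. For peroxisomal genes it was -0.18, -0.15 and -0.22 in the same replicates. WT libraries lay between -0.02 and 0.02 for both, but that mean was taken from these same libraries, which centres them near 0. Genes are not replicates, and whether the groups differ from each other was not tested.

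**Figure D3:**
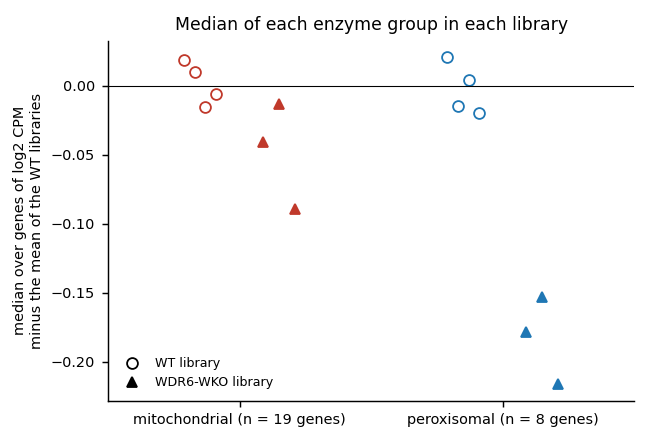
Median over the 19 mitochondrial and the 8 peroxisomal genes of log2 CPM minus the mean of the WT libraries, in each WT library (open circles) and each WDR6-WKO library (filled triangles). The peroxisomal medians of WDR6-WKO lie at -0.22 to -0.15 and the mitochondrial ones at -0.09 to -0.01.

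Summed over genes, the peroxisomal group had 613 to 631 CPM in WT and 538 to 549 CPM in WDR6-WKO, which is 87.5% of WT. The mitochondrial group had 1537 to 1569 CPM in WT and 1457 to 1536 CPM in WDR6-WKO, which is 96.3% of WT, and its nearest libraries were within about 1 CPM of each other. The 4 genes assigned to both organelles were mixed, with *Acad11* lower, *Amacr* higher and *Crat* and *Eci2* not called.

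**Figure D4:**
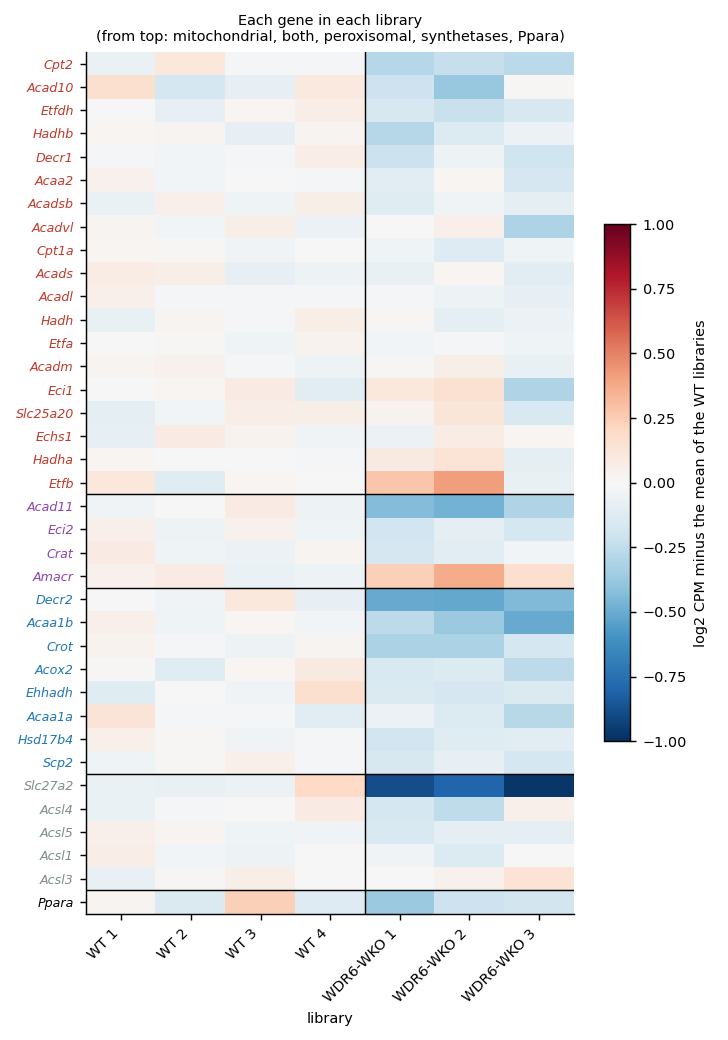
Log2 CPM of each member in each of the 7 libraries minus the mean of the WT libraries, on a colour scale from -1 (blue) to 1 (red), grouped from the top as mitochondrial, both organelles, peroxisomal, synthetases and *Ppara*. The *Slc27a2* band is darkest in all 3 WDR6-WKO libraries, and *Etfb*, *Eci1* and *Hadha* are red in replicates 1 and 2 and not in replicate 3.

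WDR6-WKO replicate 3 differed from the mean of replicates 1 and 2 by more than 0.2 on the log2 scale in 7 members, whereas replicates 1 and 2 differed from each other by that much in 0. In 5 of the 7 it was lower, namely *Slc25a20* (-0.23), *Acadvl* (-0.33), *Etfb* (-0.42), *Hadha* (-0.21) and *Eci1* (-0.43), all of which are mitochondrial. *Acsl4* (0.27) and *Acad10* (0.31) were higher, and *Acad10* is mitochondrial too. Of the 37 members 19 were grouped as mitochondrial, and the share of all genes beyond this cutoff was not computed. Without replicate 3, 12 members were called lower, against 14.1% of 14796 genes tested, and 2 higher, against 14.5%. The members gained were *Acsl4*, *Acsl5*, *Hadhb*, *Acox2*, *Hsd17b4* and *Scp2* among the lower and *Hadha* among the higher genes. The 7 calls made with all libraries held, and of the compartments 5 of 8 peroxisomal and 3 of 19 mitochondrial genes were then called lower.

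The study selected genes whose log2 fold change reached 0.35 in either direction with an unadjusted p under 0.05. By these thresholds, applied to the edgeR fit, 4 members were lower, *Slc27a2*, *Acad11*, *Decr2* and *Acaa1b*, against 3.94% of all genes tested, and 0 were higher, against 6.42%. *Cpt2*, *Crot*, *Etfdh* and *Amacr* fell short of the fold threshold.

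Per kilobase of transcript, the scale on which genes can be compared, the members spanned 2.39 (*Acaa1b*) to 110.0 CPM (*Acsl5*) in WT. After *Acsl5* came *Echs1* (76.5), *Etfa* (70.0), *Acadl* (69.5) and *Acadm* (59.5), all mitochondrial. The most abundant peroxisomal genes were *Hsd17b4* (53.4), *Scp2* (50.1) and *Crot* (48.9). Within WT, the levels per kilobase of *Etfa* and *Acadl* did not differ from each other beyond their spread over libraries. The same held for *Crot* (48.9) and *Hadha* (48.8). At the lower end, *Slc27a2* (5.58) was followed by *Ppara* (3.64), *Acad10* (3.18) and *Acaa1b*. The called members fell in the middle and lower part of this order, at ranks 11 (*Crot*), 17 (*Etfdh*), 21 (*Cpt2*), 26 (*Acad11*), 27 (*Decr2*), 30 (*Amacr*) and 34 (*Slc27a2*) of 37.

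**Figure D5:**
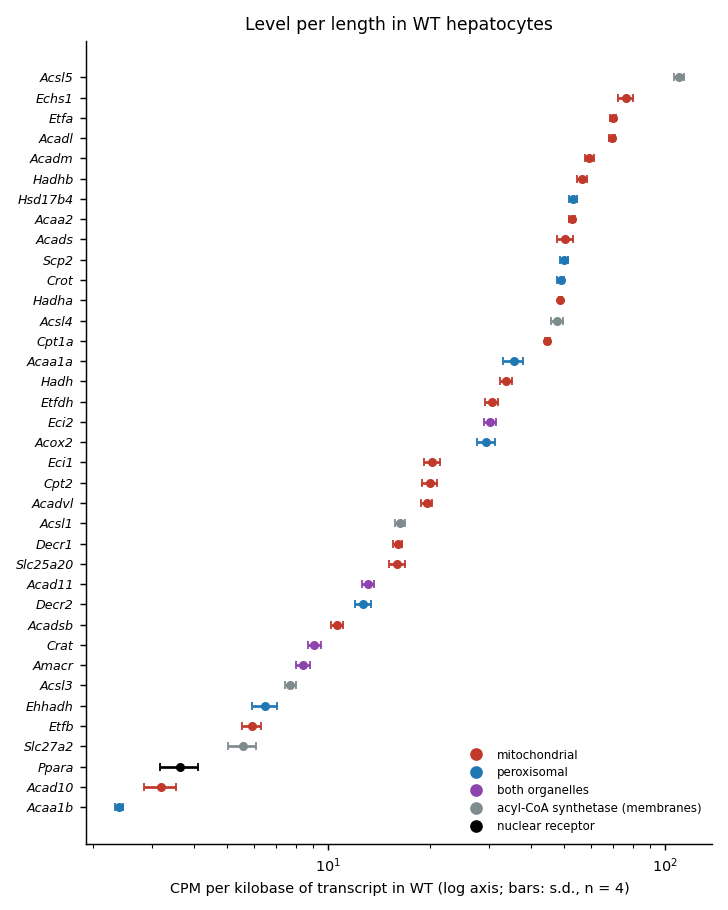
Mean CPM per kilobase of transcript of the 37 genes in WT (n = 4), on a log axis, with bars for the s.d. and colours for the compartment. Levels run from 2.39 for *Acaa1b* to 110.0 for *Acsl5*.

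Outside the members, 123 of 141 listed genes of the same and neighbouring pathways were tested, of which 16 were lower and 10 higher. The background for this count and for those of the single lists below is again 6.18% called lower and 6.65% called higher. The 17 partners and relatives of PPARα included 4 lower genes. These were *Hnf4a* (log2 fold change -0.27), a hepatocyte transcription factor, *Pparg* (-0.35), *Lpin1* (-0.25), a coactivator and phosphatidate phosphatase, and *Ncor1* (-0.16), a corepressor. *Rxra*, the partner of PPARα, did not pass the test (-0.01, adjusted p = 0.925).

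Of 25 other PPARα targets outside β-oxidation, 4 were lower and 2 higher. Among the lower genes, *Cyp4a10*, a fatty acid ω-hydroxylase, fell from 1.44 to 0.635 CPM on average (-1.20), the lipid droplet coat gene *Plin4* by 0.70 and the monoacylglycerol lipase *Mgll* by 0.50 on the log2 scale. *Fabp4* (0.42), a fatty acid carrier of macrophages and adipocytes, and *Angptl4* (0.26), an inhibitor of lipoprotein lipase, were higher.

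Of 48 other enzymes of fatty acid oxidation and acyl-CoA handling, 5 were lower and 3 higher. *Aldh3a2*, the fatty aldehyde dehydrogenase, was at 263 to 289 CPM in WT and 185 to 186 CPM in WDR6-WKO, a log2 fold change of -0.58 (adjusted p = 1.04e-06). Also lower were the acetyl-CoA hydrolase *Acot12* (-0.54), the medium-chain synthetase *Acsm3* (-1.03), the phytanoyl-CoA hydroxylase *Phyh* (-0.30), which starts peroxisomal α-oxidation, and *Acbd5* (-0.24), a peroxisomal acyl-CoA-binding protein. Higher were the mitochondrial thioesterase *Acot2* (0.64), *Hsd17b10* (0.22), a mitochondrial hydroxyacyl-CoA dehydrogenase, and *Slc27a5* (0.27), a bile acid synthetase.

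Of 28 genes of peroxisome biogenesis and peroxisomal membrane transport, 3 were lower and 4 higher. The lower genes included catalase *Cat* (-0.21) and the acyl-CoA transporter *Abcd3* (-0.23). Higher were *Pex14* (0.39), the docking factor of protein import, the transporter *Abcd2* (0.60) the membrane channel *Pxmp2* (0.36) and *Pmp22* (0.44). Mouse *Pmp22* encodes a myelin protein and not a peroxisomal one, and it stood in the list only through a shared name. Of 5 carnitine synthesis genes, 1 was called, *Shmt2*, which was higher (0.51). The other 4 did not pass the test, and the median log2 fold change of the list was -0.04.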

How the data were processed

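The authors isolated RNA with Trizol, sequenced libraries made with a NEBNext kit on an Illumina HiSeq and aligned the reads to the mouse genome (mm10) with Bowtie2 2.2.3, the version in the submitters' processing notes. They deposited raw read counts, not normalized, for each symbol. The counting tool, its annotation and its strand setting are not given in the sources used here. The table has 14819 rows, of which 21 carry spreadsheet dates in place of symbols and 2 identifiers occur on more than 1 row, and no row total is below 50. Every member has a row of its own. The members, their roles and all gene lists were chosen with earlier results of these data known.

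From the deposited counts, levels were computed as CPM with TMM scaling, and WDR6-WKO was compared with WT across all 14779 genes that passed edgeR's expression filter, with edgeR 4.0.16 in R 4.3.3 (robust quasi-likelihood test, Benjamini-Hochberg adjustment, adjusted p under 0.05). The biological coefficient of variation was 7.40%. Standard errors follow from the fold change and the F statistic. Exact permutation tests of single genes and of ratios were two-sided and used the difference in mean log2 value. DESeq2 1.42.0, limma 3.58.1 (voom), other scalings and filters, the thresholds of the study, a replicate block and the omission of each library were the alternatives. Replicate numbers are shared by both genotypes, but deviations of same-numbered libraries correlated at 0.042 to 0.092 over genes, so the numbers were not taken as pairs. Libraries of 1 genotype correlated at 0.992 to 0.996 (Spearman) and none was a copy of another.

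The steps were tested on simulated data for the WDR6-WKO and WT comparison with 14698 genes. Of genes changed by 0.5 on the log2 scale, 55 of 92 were recovered, and of genes changed by 1, 87 of 106, each with its sign recovered, and 13 unchanged genes were called. Changes smaller than 0.5 were not simulated. Recovery at the sizes seen in all members but *Slc27a2* is therefore not known. Every member was named. Full statistics were given for called members, and the log2 fold change for at most 3 others in each role, those with the smallest p. Of the other pathway lists, called genes were named, at most 5 in each direction, apart from some that are not reported here. Named beyond this rule, after their values were seen, were *Acaa1b*, *Eci1* and *Rxra*, and genes on marker lists. Coordinates, exon overlaps, transcript lengths and shared 50-base stretches came from GENCODE M21 (GRCm38), and promoters from RefSeq (GRCm38.p6), which gave none for *Crat*, *Acaa2*, *Decr1*, *Hsd17b4* and *Amacr*.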

Additional observations from a re-analysis of the deposited data

Results flagged for a closer look

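Among the 37 members, the 4 WT libraries were examined for a single library far from the others, by the gap to the nearest library divided by the whole range (Dixon's test at 95%). In 4 members a library exceeded the critical value, and chance alone flags about 1 in 20 such groups. *Slc27a2* in WT replicate 4 was at 18.6 CPM, with a gap of 0.943 of the range. *Acadl* in WT replicate 1 was at 138 CPM (0.919). *Hadhb* in WT replicate 3 was at 109.8 CPM, below the other WT libraries (0.933). *Decr1* in WT replicate 4 was at 49.7 CPM (0.873). For *Slc27a2* the decrease in WDR6-WKO held without this library. The 3 WDR6-WKO libraries are too few for this test.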

How the results depend on the processing

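Counting error limited *Acaa1b* most, which had 51 to 83 reads in each library. *Slc27a2*, *Acad11*, *Decr2* and *Crot* remained called lower under DESeq2, limma-voom, both other scalings, both other filters, the replicate block and the omission of each library. With each library left out in turn, 5 to 12 members were called lower and 0 to 2 higher, 1 to 3 mitochondrial genes lower and 0 to 1 higher, and 2 to 5 peroxisomal genes lower. Over all genes tested 462 to 2083 were then lower and 570 to 2150 higher, the highest counts being those without WDR6-WKO replicate 3 and the lowest those without WDR6-WKO replicate 2. *Cpt2* lost its call without WT replicate 2, *Etfdh* and *Amacr* theirs without WT replicates 1, 3 or 4 or WDR6-WKO replicates 1 or 2, and *Amacr* also without WT replicate 2. The medians then ranged from -0.12 to -0.10 for all members, -0.0796 to -0.0336 for mitochondrial and -0.21 to -0.16 for peroxisomal genes. Library sizes alone, without TMM, moved the median of all genes from 0.0051 to 0.0317 and left 1 mitochondrial gene lower, *Etfdh* losing its call, with medians of -0.0858 for all members, -0.0277 for mitochondrial and -0.14 for peroxisomal genes. DESeq2 added *Acox2* to the lower genes. By the thresholds of the study 0 members were higher, 0 mitochondrial genes were lower and over all genes 583 were lower and 949 higher. With replicate number as a block, 5 members were lower and 0 higher, 1 of the lower ones mitochondrial, *Etfdh* and *Amacr* losing their calls; no other member's call changed with this block. The sign of members near 0 depended on the setting. *Acadm* stood at -0.0048 with RLE size factors, -0.0045 with DESeq2 and -0.0176 with the block, and *Eci1* at -0.0048, -0.0060 and -0.0447, and at -0.0020 with limma-voom. *Etfa* was at 0.0010 with library sizes alone. Leaving out libraries gave ranges of -0.0535 to 0.0732 for *Slc25a20*, -0.14 to 0.0236 for *Acadvl*, -0.0281 to 0.0327 for *Acadm*, -0.0231 to 0.0429 for *Echs1*, -0.0015 to 0.11 for *Hadha* and -0.0796 to 0.12 for *Eci1*. The cause of these changes was not tested.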
